A study of Homo sapiens with 9 samples.

Results

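DNA replication genes were described as a set of 45 genes in Huh7 cells with a knockdown of IMPDH1 or IMPDH2. The members were the rows of the deposited count table that carry the 45 symbols of a list of replication factors and hold 10 or more counts in at least 3 of the 9 libraries. All 45 listed genes met that rule, out of 58684 genes in the table, and all 45 were among the 17396 genes tested. Huh7 is an established human hepatocellular carcinoma cell line. The 3 groups were cells with a control hairpin (shControl), cells with a hairpin against IMPDH1 (shIMPDH1) and cells with a hairpin against IMPDH2 (shIMPDH2), with 3 libraries each. The hairpins came in the pLKO.1 lentiviral vector, virus was made in HEK293T cells, and infected cells were selected with puromycin to give stable knockdown cells. Hairpin sequences, hairpins per gene, time after infection and whether the 3 libraries of a group came from separate infections were not stated in the labels, and a p-value covers no more than the spread among these libraries.

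Replication of DNA begins when the origin recognition complex, with CDC6 and CDT1, loads rings of MCM2 to MCM7 onto chromatin, a step called licensing that geminin (GMNN) blocks by binding CDT1. In S phase CDC45 and the GINS complex join the ring to form the active helicase, polymerase alpha with primase starts each strand, the RFC complex loads the clamp PCNA, and polymerases delta and epsilon copy the strands. RPA covers the single strands, and the lagging strand is joined by FEN1, DNA2, RNase H2 and LIG1. Many of these genes are known targets of E2F transcription factors and rise at the start of S phase. IMPDH1 and IMPDH2 encode isozymes of inosine monophosphate dehydrogenase, the first step of the branch to guanine nucleotides, from which the dGTP used in replication is made.

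Gene levels are CPM values, counts scaled to the size of each library with TMM factors, always in the order of replicates 1, 2 and 3. A gene is said to have risen, fallen or been called where its adjusted p was under 0.05 in the edgeR quasi-likelihood test, adjusted by Benjamini-Hochberg over the 17396 genes. Every adjusted p below comes from that test, including those in parentheses after a left-out library. Libraries held 44560837 to 58370328 counts, and the lowest count of any member in any library was 734. Both targets were lower in their own knockdown, and each lay above the control libraries in the other knockdown. IMPDH1 was at 62.9, 62.5 and 62.6 CPM in shControl, 25.3, 23.5 and 24.7 CPM in shIMPDH1 and 66.4, 71.5 and 73.1 CPM in shIMPDH2. IMPDH2 was at 226, 227 and 229.6 CPM in shControl, 271, 274 and 277 CPM in shIMPDH1 and 109, 109.9 and 109.7 CPM in shIMPDH2. Of the libraries of 1 group, shControl replicate 1 differed most from its fellows, with a mean chi-square per gene of 5.91 and 7.19 against replicates 2 and 3, which differed from each other by 1.95. Calls that were lost without that library or another are given beside the gene. Some of the same calls were also lost under another tool, scaling or filter, which is not marked beside the gene. Calls kept under all 17 alternatives are counted below. The hepatocyte and hepatoma markers were all expressed, and they summed to between 36029 and 44209 CPM over the 9 libraries. Markers of other cells were in part expressed. PTPRC, CD68, CD3E, VWF, KDR and TEK stayed under 0.13 CPM in each library. LYZ, listed as a leukocyte marker, lay between 859 and 1345 CPM and was highest in shIMPDH1. Of the 6 leukocyte markers, 2 were among the genes tested. The 6 fibroblast markers summed to between 25.001 and 33.1 CPM over the 9 libraries. The 5 endothelial markers summed to between 5.29 and 13.5 CPM, nearly all of it PECAM1.

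Single replication genes moved up or down by small amounts, while their summed CPM stayed within the spread between libraries. The CPM of the 45 genes summed to a mean of 5308 in shControl (SD 45.1, n = 3), 5277 in shIMPDH1 (SD 38.9) and 5284 in shIMPDH2 (SD 61.1). These sums differed by less than the spread between libraries. Of all counts, without TMM factors, the 45 genes took 0.527% to 0.533% in shControl, 0.522% to 0.524% in shIMPDH1 and 0.530% to 0.536% in shIMPDH2. On that share the shIMPDH1 libraries lay below all others. In bulk RNA a smaller share of cells in S phase and less of a transcript per cell cannot be told apart.

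In shIMPDH1 against shControl, 13 members rose, 11 fell and 21 were not called. The genes that rose most were GINS3, a subunit of the helicase complex, POLD2, a subunit of polymerase delta, the primase gene PRIM1 and the licensing factor gene CDT1. The largest falls were in the licensing inhibitor GMNN, the single-strand binding gene RPA1, the clamp PCNA and the ring subunit MCM6. Log2 changes of all 45 members lay between -0.22 and 0.41. Over all genes tested 20.6% were called higher and 22.8% lower, 43.4% in all, against 53.3% of the members. Among the 7571 genes of the members' range of expression 58.5% were called, so the members' share lay near that of genes of like level. The libraries of both groups did not overlap for 26 of 45 members, 57.8%, beside 51.7% of all genes tested and 66.0% of the genes of like level. The members' median log2 change was 0.02 and that of all genes tested 0.00. The median size of a change, without its sign, was 0.10 for the members, 0.11 for the genes of like level and 0.16 for all genes tested.

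In shIMPDH2 against shControl, 14 members rose, 8 fell and 23 were not called. GINS3 and PRIM1 had the largest rises, followed by the clamp loader gene RFC4 and TIPIN of the fork protection complex. RFC5, another subunit of the clamp loader, fell most of all members, followed by RPA2, GMNN and UHRF1. Log2 changes lay between -0.38 and 0.36. Over all genes tested 18.6% were called higher and 19.9% lower, 38.4% in all, against 48.9% of the members. Among the 7571 genes of the members' range of expression 52.5% were called, so the members' share lay near that of genes of like level. The libraries of both groups did not overlap for 25 of 45 members, 55.6%, beside 46.7% of all genes tested and 59.0% of the genes of like level. The members' median log2 change was 0.02 and that of all genes tested 0.01. The median size of a change, without its sign, was 0.08 for the members, 0.09 for the genes of like level and 0.14 for all genes tested.

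Between the knockdowns, 14 members were higher in shIMPDH2 than in shIMPDH1, 12 were lower and 19 were not called. CDC45, GINS2 and PCNA were higher in shIMPDH2, and RFC5, POLD1, POLD2 and GINS1 were lower. Log2 changes lay between -0.29 and 0.21. Over all genes tested 21.7% were called higher and 22.2% lower, 44.0% in all, against 57.8% of the members. Among the 7571 genes of the members' range of expression 60.6% were called, so the members' share lay near that of genes of like level. The libraries of both groups did not overlap for 26 of 45 members, 57.8%, beside 51.5% of all genes tested and 66.7% of the genes of like level. The members' median log2 change was 0.02 and that of all genes tested -0.01. The median size of a change, without its sign, was 0.09 for the members, 0.11 for the genes of like level and 0.17 for all genes tested.

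Few members were called with a change of at least 1.2-fold. GINS3, PRIM1 and POLD2 reached it in shIMPDH1, GINS3, PRIM1, RFC4 and RFC5 in shIMPDH2, and RFC5 between the knockdowns. Over all genes tested 20.8%, 16.6% and 21.2% did so in the 3 comparisons, and among the genes of like level 15.3%, 10.7% and 16.8%, beside 6.67%, 8.89% and 2.22% of the members. Both comparisons with the control use the same 3 shControl libraries, so a chance deviation of those libraries enters both, and values of the knockdowns are given side by side.

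**Figure D1:**
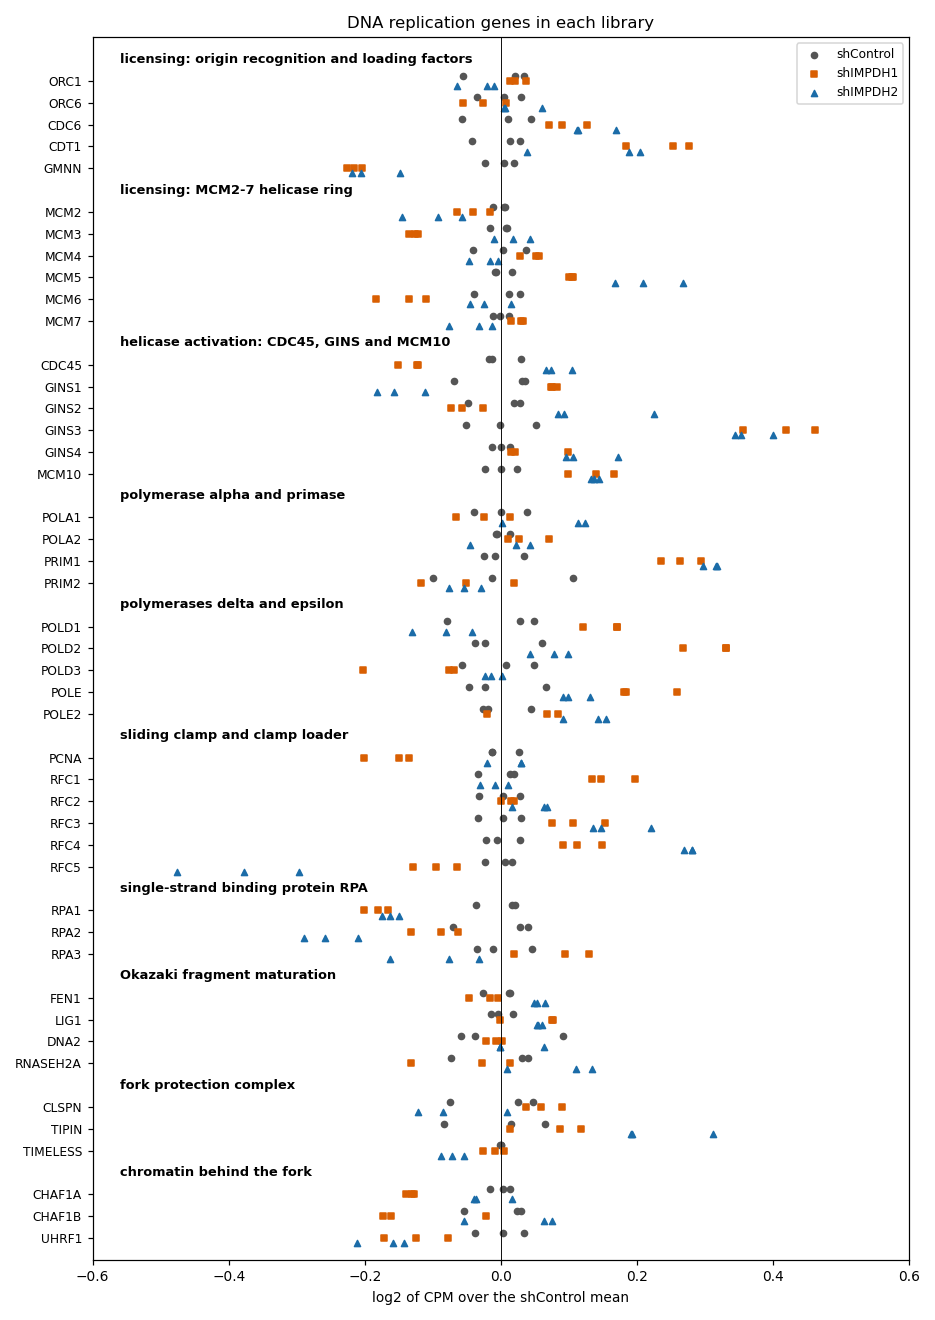
Level of each of the 45 members in each of the 9 libraries, as the log2 of its CPM over the mean of the 3 shControl libraries (x axis), with members grouped by role (y axis). Nearly all points lie within 0.3 of the control mean, with GINS3 to the right in both knockdowns and RFC5 to the left in shIMPDH2.

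Among the origin and loading factors, CDC6 and CDT1 rose in both knockdowns and GMNN, whose product binds CDT1, fell in both. ORC1 and ORC6 were not called in any comparison. CDT1 (chromosome 16, positions 88803213 to 88809258, plus strand), which brings the MCM ring to the origin, was at 43.5, 41.9 and 43.97 CPM in shControl, 48.97, 51.4 and 52.2 CPM in shIMPDH1 and 44.3, 49.7 and 49.1 CPM in shIMPDH2. Every knockdown library lay above every control library. CDT1 rose by 0.24 on the log2 scale (SE 0.041, adjusted p = 2.38e-05) in shIMPDH1 and by 0.14 (SE 0.041, adjusted p = 0.00595) in shIMPDH2. GMNN (chromosome 6, positions 24774931 to 24786099, plus strand), encoding geminin, was at 74.2, 76.4 and 75.7 CPM in shControl, 64.5, 64.9 and 65.5 CPM in shIMPDH1 and 65.4, 68.1 and 64.8 CPM in shIMPDH2. All 6 knockdown libraries lay below the control libraries. It fell by 0.22 on the log2 scale (SE 0.031, adjusted p = 1.67e-06) in shIMPDH1 and fell by 0.19 on the log2 scale (SE 0.030, adjusted p = 1.26e-05) in shIMPDH2. CDC6 (chromosome 17, positions 40287633 to 40304657, plus strand), the ATPase that works with CDT1, was at 123, 129 and 132 CPM in shControl, 134, 139 and 136 CPM in shIMPDH1 and 138, 144 and 138 CPM in shIMPDH2, with no overlap with the control in either knockdown. It rose by 0.10 on the log2 scale (SE 0.029, adjusted p = 0.00845) in shIMPDH1 and by 0.13 (SE 0.029, adjusted p = 0.000624) in shIMPDH2. The call of CDC6 in shIMPDH1 was lost without shControl replicate 1 (0.0585) or shIMPDH1 replicate 2 (0.0652), and that of CDT1 in shIMPDH2 was lost without shIMPDH2 replicate 2 (0.0515), the adjusted p without it in parentheses. ORC1, the ATPase subunit of the origin recognition complex, had a log2 change of 0.02 (adjusted p = 0.637) in shIMPDH1 and of -0.03 (adjusted p = 0.535) in shIMPDH2. ORC6, its smallest subunit, had a log2 change of -0.03 (adjusted p = 0.575) and of 0.02 (adjusted p = 0.607). For ORC1 the 95% interval of the log2 change was -0.05 to 0.09 in shIMPDH1 and -0.10 to 0.04 in shIMPDH2. Between the knockdowns none of these 5 genes was called.

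The 6 genes of the MCM ring did not move as a block. In shIMPDH1 the level of MCM3 and MCM6 fell, that of MCM5 rose, and MCM2, MCM4 and MCM7 were not called. MCM6 (chromosome 2, positions 135839626 to 135876426, minus strand) was at 223, 232 and 234 CPM in shControl, 202, 213 and 209 CPM in shIMPDH1 and 223, 226 and 232 CPM in shIMPDH2. It fell by 0.14 on the log2 scale (SE 0.027, adjusted p = 8.47e-05) in shIMPDH1, where its libraries lay below all others, and had a log2 change of -0.02 (adjusted p = 0.633) in shIMPDH2. MCM3 was at 431, 424 and 431 CPM in shControl, 394, 393 and 390.1 CPM in shIMPDH1 and 426, 434 and 442 CPM in shIMPDH2. Its shIMPDH1 libraries lay below the other 6, and it fell by 0.13 on the log2 scale (SE 0.023, adjusted p = 5.92e-05) there, against a log2 change of 0.02 (adjusted p = 0.609) in shIMPDH2. MCM5 (chromosome 22, positions 35400063 to 35425430, plus strand) was at 119, 117 and 117 CPM in shControl, 126, 126 and 126 CPM in shIMPDH1 and 132, 141 and 135 CPM in shIMPDH2. The groups of MCM5 formed 3 separate steps. It rose by 0.10 on the log2 scale (SE 0.028, adjusted p = 0.00355) in shIMPDH1 and by 0.21 (SE 0.028, adjusted p = 5.38e-07) in shIMPDH2, and it was higher in shIMPDH2 than in shIMPDH1 by a log2 change of 0.11 (adjusted p = 0.00173). MCM2 fell by 0.10 on the log2 scale (SE 0.025, adjusted p = 0.00281) in shIMPDH2 and had a log2 change of -0.04 (adjusted p = 0.207) in shIMPDH1. Of its exon bases 23.6% overlap a gene on the opposite strand, so without the strand setting of the counting its value is uncertain.

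Between the knockdowns, 5 of the 6 ring genes were called. MCM3, MCM5 and MCM6 were higher in shIMPDH2, by 0.14 (adjusted p = 1.01e-05), 0.11 (adjusted p = 0.00173) and 0.12 (adjusted p = 0.000405) on the log2 scale, and MCM4 and MCM7 were lower, with log2 changes of -0.07 (adjusted p = 0.0286) and -0.07 (adjusted p = 0.0249). Against the control MCM4 had a log2 change of 0.05 (adjusted p = 0.150) in shIMPDH1 and of -0.02 (adjusted p = 0.516) in shIMPDH2. For MCM4 the call was lost without shControl replicate 2 (0.0859), shIMPDH1 replicate 1 (0.0764) or 2 (0.105) or shIMPDH2 replicate 1 (0.100) or 2 (0.0580). For MCM7 it was lost without shControl replicate 2 (0.0754), shIMPDH1 replicate 2 (0.0816) or 3 (0.0854) or shIMPDH2 replicate 1 (0.127). MCM7 was at 709.8, 721 and 715 CPM in shControl, 722, 729.9 and 731 CPM in shIMPDH1 and 679, 709 and 699.7 CPM in shIMPDH2. The summed CPM of the 6 genes was 2169 in shControl (SD 15.8, n = 3), 2134 in shIMPDH1 (SD 14.7) and 2143 in shIMPDH2 (SD 43.2).

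Of the 6 genes that turn the loaded ring into an active helicase, GINS1, GINS3 and MCM10 rose and CDC45 fell in shIMPDH1, whereas in shIMPDH2 GINS1 fell and the other 5 rose. GINS3 (chromosome 16, positions 58295080 to 58406144, plus strand), encoding the Psf3 subunit of the GINS tetramer, had the largest rise of all members in both knockdowns. It was at 15.2, 16.4 and 15.8 CPM in shControl, 20.2, 21.7 and 21.1 CPM in shIMPDH1 and 20.2, 20.04 and 20.8 CPM in shIMPDH2. The 6 knockdown libraries all lay above the highest control library. GINS3 rose by 0.41 on the log2 scale (SE 0.049, adjusted p = 1.05e-07) in shIMPDH1 and by 0.36 (SE 0.049, adjusted p = 1.05e-06) in shIMPDH2, with a log2 change of -0.05 (adjusted p = 0.451) between them. An antisense transcript shares 10.9% of its exon bases, so the value is uncertain to that extent. MCM10, a scaffold that helps to start the fork, was at 62.2, 64.2 and 63.2 CPM in shControl, 67.7, 70.9 and 69.7 CPM in shIMPDH1 and 69.5, 69.8 and 69.3 CPM in shIMPDH2. It rose by 0.14 on the log2 scale (SE 0.031, adjusted p = 0.000688) in shIMPDH1 and by 0.14 (adjusted p = 0.000712) in shIMPDH2, and its libraries were above the control in both.

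CDC45 and GINS1 moved in opposite directions in the knockdowns. CDC45 (chromosome 22, positions 19479459 to 19520612, plus strand), the factor that joins GINS and the MCM ring, was at 84.4, 84.1 and 86.9 CPM in shControl, 78.2, 76.7 and 78.3 CPM in shIMPDH1 and 91.6, 89.7 and 89.2 CPM in shIMPDH2. The shIMPDH1 libraries lay below the control and the shIMPDH2 libraries above it. It fell by 0.13 on the log2 scale (SE 0.029, adjusted p = 0.000510) in shIMPDH1 and rose by 0.08 on the log2 scale (SE 0.028, adjusted p = 0.0232) in shIMPDH2, a difference between the knockdowns of 0.21 (SE 0.029, adjusted p = 6.88e-07). GINS1 (chromosome 20, positions 25407727 to 25452628, plus strand), encoding Psf1, was at 109.9, 118 and 118 CPM in shControl, 121, 121 and 122 CPM in shIMPDH1 and 103, 107 and 102 CPM in shIMPDH2. Its order was the reverse of that of CDC45. GINS1 rose by 0.08 on the log2 scale (SE 0.030, adjusted p = 0.0397) in shIMPDH1 and fell by 0.15 on the log2 scale (SE 0.030, adjusted p = 0.000240) in shIMPDH2, a difference between the knockdowns of -0.23 (SE 0.030, adjusted p = 5.59e-07). The smaller change of each gene rested on single libraries. The rise of CDC45 in shIMPDH2 was lost without shControl replicate 1 (0.0572) or 2 (0.0654) or shIMPDH2 replicate 1 (0.0742). The rise of GINS1 in shIMPDH1 was lost without shControl replicate 1 (0.248) or shIMPDH1 replicate 1 (0.0736), 2 (0.0899) or 3 (0.107). GINS2, encoding Psf2, was at 32.05, 32.3 and 30.6 CPM in shControl, 30.4, 31.1 and 30.1 CPM in shIMPDH1 and 33.7, 33.5 and 36.96 CPM in shIMPDH2. It rose by 0.13 on the log2 scale (SE 0.042, adjusted p = 0.0128) in shIMPDH2 (not called without shControl replicate 3 (0.0687) or shIMPDH2 replicate 3 (0.129)), and was higher than in shIMPDH1 by 0.19 (adjusted p = 0.000695). GINS4, the last subunit, rose by 0.12 on the log2 scale (SE 0.033, adjusted p = 0.00316) in shIMPDH2 and had a log2 change of 0.05 (adjusted p = 0.280) in shIMPDH1, with 23.6% of its exon bases under a gene of the opposite strand.

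Of the 4 genes of polymerase alpha and primase, PRIM1 alone was called against the control. PRIM1 (chromosome 12, positions 56731596 to 56752373, minus strand), the catalytic primase subunit that lays down the RNA primer, was at 29.1, 29.4 and 30.3 CPM in shControl, 34.8, 35.5 and 36.3 CPM in shIMPDH1 and 36.9, 36.4 and 36.9 CPM in shIMPDH2. Both knockdowns lay wholly above the control. It rose by 0.26 on the log2 scale (SE 0.038, adjusted p = 1.78e-06) in shIMPDH1 and by 0.31 (SE 0.037, adjusted p = 1.62e-07) in shIMPDH2, and the knockdowns differed by a log2 change of 0.05 (adjusted p = 0.343). Exons of NACA and AC117378.1 on the same strand cover 16.2% of the exon bases of PRIM1, and those of HSD17B6 on the other strand 5.42%, so its value is uncertain to that extent. NACA itself changed by 0.17 (adjusted p = 1.05e-05) in shIMPDH1 and 0.08 (adjusted p = 0.0160) in shIMPDH2. PRIM2, the large primase subunit, was at 26.7, 28.3 and 30.8 CPM in shControl, with a log2 change of -0.05 (adjusted p = 0.444) in shIMPDH1 and of -0.05 (adjusted p = 0.435) in shIMPDH2. The 95% interval for PRIM2 was -0.14 to 0.05 in shIMPDH1 and -0.15 to 0.04 in shIMPDH2, and does not reach the PRIM1 changes. The catalytic polymerase gene POLA1 had a log2 change of -0.03 (adjusted p = 0.647) and of 0.08 (adjusted p = 0.0998), and POLA2, its partner, a log2 change of 0.04 (adjusted p = 0.418) and of 0.01 (adjusted p = 0.893). AP000944.2 shares 35.1% of the exon bases of POLA2 on the same strand, which leaves that value uncertain. POLA1 was higher in shIMPDH2 than in shIMPDH1 by 0.11 (adjusted p = 0.0276), with overlapping libraries, and that call was lost without shIMPDH1 replicate 1 (0.0593) or 3 (0.133) or shIMPDH2 replicate 1 (0.115) or 3 (0.104).

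Among the replicative polymerases, POLD1, POLD2 and POLE rose and POLD3 fell in shIMPDH1, and POLE and POLE2 rose in shIMPDH2. POLD2 (chromosome 7, positions 44114681 to 44124358, minus strand), the subunit that holds polymerase delta together, was at 85.3, 80.5 and 79.7 CPM in shControl, 98.5, 103 and 103 CPM in shIMPDH1 and 84.3, 87.6 and 86.4 CPM in shIMPDH2. The shIMPDH1 libraries stood above the other 6. POLD2 rose by 0.31 on the log2 scale (SE 0.031, adjusted p = 5.48e-09) in shIMPDH1 and had a log2 change of 0.07 (adjusted p = 0.0697) in shIMPDH2, and the difference between the knockdowns was -0.24 (adjusted p = 4.80e-07). POLD1 (chromosome 19, positions 50384204 to 50418016, plus strand), the catalytic subunit of the same enzyme, was at 70.3, 69.3 and 64.4 CPM in shControl, 76.5, 73.9 and 76.5 CPM in shIMPDH1 and 62.1, 64.3 and 65.998 CPM in shIMPDH2. Here too shIMPDH1 was above the others, and POLD1 rose by 0.15 on the log2 scale (SE 0.034, adjusted p = 0.000660) there, against a log2 change of -0.09 (adjusted p = 0.0526) in shIMPDH2. The difference between the knockdowns was -0.24 (adjusted p = 2.23e-06). POLD3, an accessory subunit, fell by 0.12 on the log2 scale (SE 0.042, adjusted p = 0.0261) in shIMPDH1, a call that was lost without shControl replicate 2 (0.0720) or 3 (0.116) or shIMPDH1 replicate 3 (0.206). It had a log2 change of -0.01 (adjusted p = 0.852) in shIMPDH2 and was higher there than in shIMPDH1 by 0.10 (adjusted p = 0.0460), a call that was lost without shIMPDH1 replicate 3 (0.305) or shIMPDH2 replicate 1 (0.0694), 2 (0.0697) or 3 (0.110). POLE, the catalytic subunit of polymerase epsilon, was at 131, 123 and 121 CPM in shControl, 149, 141 and 142 CPM in shIMPDH1 and 137, 134 and 133 CPM in shIMPDH2. It rose by 0.21 on the log2 scale (SE 0.030, adjusted p = 2.75e-06) in shIMPDH1 and by 0.11 (SE 0.030, adjusted p = 0.00622) in shIMPDH2, and was lower in shIMPDH2 than in shIMPDH1, with a log2 change of -0.10 (adjusted p = 0.00816), a call that was lost without shIMPDH1 replicate 1 (0.0710). POLE2, its second subunit, rose by 0.13 on the log2 scale (SE 0.044, adjusted p = 0.0202) in shIMPDH2, which was lost without shControl replicate 2 (0.0645) or 3 (0.0640) or shIMPDH2 replicate 2 (0.0620) or 3 (0.0723), and had a log2 change of 0.05 (adjusted p = 0.437) in shIMPDH1.

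Subunits of the clamp loader moved in different directions within 1 complex. RFC4 rose and RFC5 fell in both knockdowns, RFC3 rose in both, RFC1 rose in shIMPDH1, and RFC2 was not called in any comparison. RFC5 (chromosome 12, positions 118013588 to 118033130, plus strand) was at 49.3, 50.7 and 50.4 CPM in shControl, 46.9, 45.8 and 47.9 CPM in shIMPDH1 and 38.6, 40.8 and 36.03 CPM in shIMPDH2. The 3 groups did not overlap, with shIMPDH2 lowest. It fell by 0.10 on the log2 scale (SE 0.039, adjusted p = 0.0450) in shIMPDH1 and fell by 0.38 on the log2 scale (SE 0.039, adjusted p = 9.84e-09) in shIMPDH2, and the difference between the knockdowns was -0.29 (SE 0.040, adjusted p = 1.12e-06). The call in shIMPDH1 was lost without shControl replicate 2 (0.128) or 3 (0.0925) or shIMPDH1 replicate 1 (0.0880) or 2 (0.164). Exons of genes on the opposite strand, WSB2 among them, cover 10.6% of the exon bases of RFC5. The log2 change of WSB2 was -0.43 (adjusted p = 4.83e-10) in shIMPDH1 and 0.09 (adjusted p = 0.0450) in shIMPDH2, and the part of shared reads in the RFC5 values was not tested. RFC4 (chromosome 3, positions 186789880 to 186807058, minus strand) was at 69.6, 72.1 and 70.4 CPM in shControl, 75.3, 76.4 and 78.4 CPM in shIMPDH1 and 85.9, 85.9 and 85.2 CPM in shIMPDH2, in the opposite order to RFC5 and again with no overlap. It rose by 0.12 on the log2 scale (SE 0.030, adjusted p = 0.00200) in shIMPDH1 and by 0.28 (SE 0.029, adjusted p = 1.72e-08) in shIMPDH2, and the knockdowns differed by 0.16 (adjusted p = 5.91e-05).

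RFC3 (chromosome 13, positions 33818049 to 33966558, plus strand) was at 59.1, 60.7 and 61.8 CPM in shControl, 63.8, 67.3 and 65.1 CPM in shIMPDH1 and 66.5, 70.6 and 67.01 CPM in shIMPDH2, with both knockdowns above the control. RFC3 rose by 0.11 (adjusted p = 0.00758) and 0.17 (adjusted p = 0.000199) on the log2 scale, and the first call was lost without shIMPDH1 replicate 2 (0.0658). RFC1, the large subunit specific to this loader, was at 130.3, 135 and 135 CPM in shControl, 146, 153 and 148 CPM in shIMPDH1 and 134, 132 and 130.5 CPM in shIMPDH2. It rose by 0.16 on the log2 scale (SE 0.027, adjusted p = 2.16e-05) in shIMPDH1, had a log2 change of -0.01 (adjusted p = 0.820) in shIMPDH2, and was lower in shIMPDH2 than in shIMPDH1, with a log2 change of -0.17 (adjusted p = 9.17e-06). RFC2 lay within a log2 interval of -0.05 to 0.08 of the control in shIMPDH1 and -0.01 to 0.11 in shIMPDH2. PCNA (chromosome 20, positions 5114953 to 5126626, minus strand), the ring-shaped clamp itself, was at 288, 296 and 288 CPM in shControl, 253, 262 and 265 CPM in shIMPDH1 and 287, 297 and 297 CPM in shIMPDH2. Its shIMPDH1 libraries lay below all others and the other groups overlapped. PCNA fell by 0.16 on the log2 scale (SE 0.025, adjusted p = 7.96e-06) in shIMPDH1, had a log2 change of 0.01 (adjusted p = 0.736) in shIMPDH2, and was higher in shIMPDH2 than in shIMPDH1 by 0.17 (adjusted p = 2.37e-06). Genes with pseudogenes named for them in GENCODE 29, among them PCNA, RFC3, RFC5, POLD2, RPA2 and FEN1, can share reads with those copies. Smaller overlaps with exons of other genes cover 8.94% of the exon bases of MCM7 on the opposite strand and 8.64% of those of POLD1 on the same strand.

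**Figure D2:**
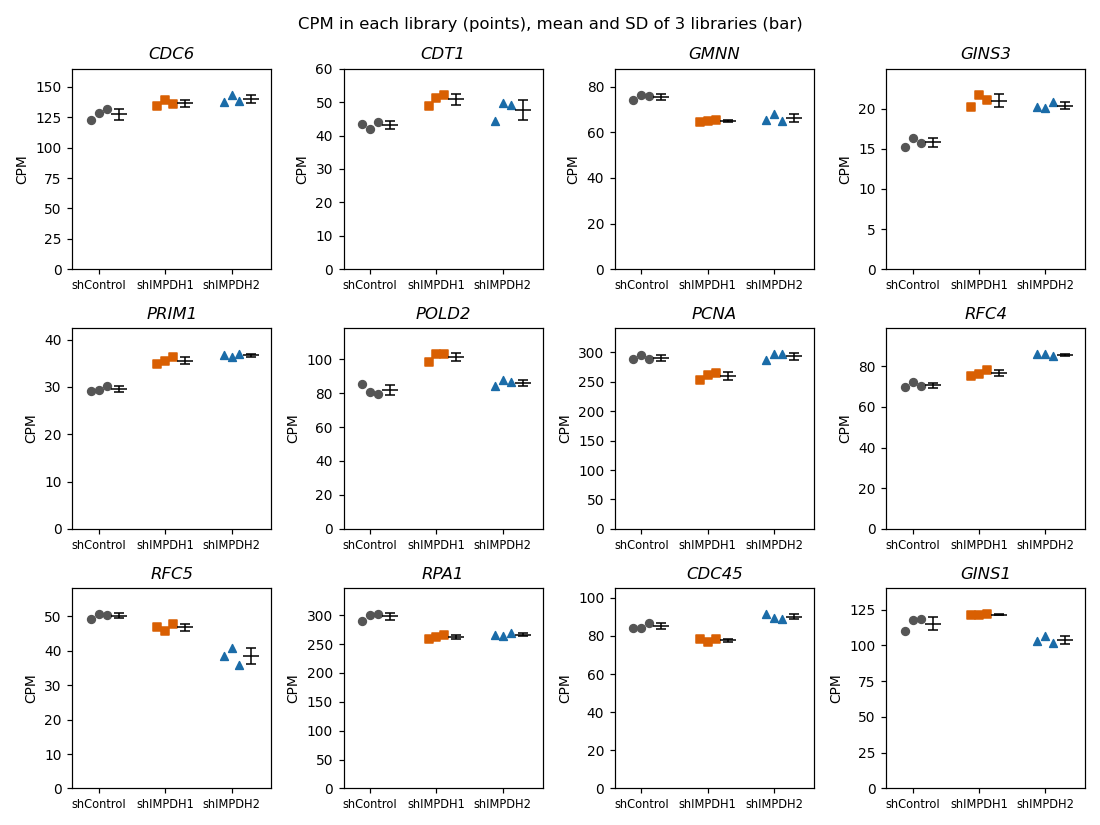
CPM of 12 members in each library (y axis, from 0) for shControl, shIMPDH1 and shIMPDH2 (x axis), with the mean and SD of the 3 libraries of a group as a bar beside the points. RFC4 and RFC5 step in opposite directions, GMNN is lower and GINS3 and PRIM1 are higher in both knockdowns, and PCNA and POLD2 stand apart in shIMPDH1.

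RPA, the trimer that covers single-stranded DNA, was lower in the mRNA of RPA1 and RPA2 in both knockdowns. RPA1 (chromosome 17, positions 1829702 to 1900082, plus strand) was at 290.4, 301 and 302 CPM in shControl, 259, 263 and 266 CPM in shIMPDH1 and 266, 264 and 269 CPM in shIMPDH2. All 6 knockdown libraries lay below the control. It fell by 0.18 on the log2 scale (SE 0.024, adjusted p = 6.84e-07) in shIMPDH1 and fell by 0.16 on the log2 scale (SE 0.024, adjusted p = 5.30e-06) in shIMPDH2. RPA2, the subunit that checkpoint kinases phosphorylate, was at 71.4, 76.5 and 77.1 CPM in shControl, 68.4, 71.7 and 70.5 CPM in shIMPDH1 and 61.3, 64.8 and 62.7 CPM in shIMPDH2. Its shIMPDH2 libraries lay below the rest, whereas shIMPDH1 overlapped the control. RPA2 fell by 0.25 on the log2 scale (SE 0.034, adjusted p = 1.06e-06) in shIMPDH2 and fell by 0.09 on the log2 scale (SE 0.034, adjusted p = 0.0259) in shIMPDH1, the latter lost without shControl replicate 2 (0.112) or 3 (0.119) or shIMPDH1 replicate 1 (0.124) or 3 (0.0559). RPA3, the smallest subunit, was at 28.1, 29.3 and 27.7 CPM in shControl, 28.7, 31.02 and 30.3 CPM in shIMPDH1 and 25.3, 27.7 and 26.9 CPM in shIMPDH2. It was not called against the control, with a log2 change of 0.08 (adjusted p = 0.144) and of -0.09 (adjusted p = 0.107), but was lower in shIMPDH2 than in shIMPDH1, with a log2 change of -0.17 (adjusted p = 0.00221).

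The 4 genes that finish the lagging strand had no call against the control in either knockdown, by edgeR with all 9 libraries. FEN1, the flap nuclease, was at 195, 200.4 and 201 CPM in shControl, 192, 198 and 197 CPM in shIMPDH1 and 206, 206 and 208 CPM in shIMPDH2. Its log2 interval against the control was -0.07 to 0.03 in shIMPDH1 and 0.01 to 0.10 in shIMPDH2. LIG1, the ligase, was within -0.01 to 0.11 and -0.01 to 0.12, DNA2, a nuclease and helicase, within -0.09 to 0.07 and -0.06 to 0.10, and RNASEH2A, the catalytic subunit of RNase H2, within -0.13 to 0.04 and 0.00 to 0.17. THSD8 shares 30.8% of the exon bases of RNASEH2A on the same strand, so the RNASEH2A values are uncertain. Between the knockdowns FEN1 was higher in shIMPDH2 by 0.08 (adjusted p = 0.0111) and RNASEH2A by 0.13 (adjusted p = 0.0156). The call of FEN1 was lost without shIMPDH1 replicate 1 (0.0687), and that of RNASEH2A without shIMPDH1 replicate 1 (0.122) or shIMPDH2 replicate 2 (0.0577) or 3 (0.0830).

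In the fork protection complex, which couples the helicase to the polymerases and relays checkpoint signals, no gene was called in shIMPDH1. TIPIN (chromosome 15, positions 66336206 to 66386746, minus strand) was at 25.5, 27.3 and 28.3 CPM in shControl, 27.3, 28.7 and 29.3 CPM in shIMPDH1 and 33.5, 30.8 and 30.8 CPM in shIMPDH2. The shIMPDH2 libraries stood above the other 6, and TIPIN rose by 0.23 on the log2 scale (SE 0.046, adjusted p = 0.000189) there. The pseudogene RPL9P25 lies on 21.02% of the exon bases of TIPIN on the same strand, has no counts in the table, and leaves the value of TIPIN uncertain. Its binding partner TIMELESS was at 249.8, 249.6 and 249.8 CPM in shControl and 235, 238 and 241 CPM in shIMPDH2, and fell by 0.07 on the log2 scale (SE 0.023, adjusted p = 0.0177). The fall of TIMELESS was no longer called without shControl replicate 2 (0.0867) or shIMPDH2 replicate 1 (0.0521) or 2 (0.0530). CLSPN, encoding claspin, the mediator of CHK1 activation, had a log2 change of 0.06 (adjusted p = 0.177) in shIMPDH1 and of -0.06 (adjusted p = 0.175) in shIMPDH2. Between the knockdowns TIPIN was higher in shIMPDH2 by 0.16 (adjusted p = 0.00605), and CLSPN and TIMELESS were lower, with log2 changes of -0.13 (adjusted p = 0.00596) and -0.06 (adjusted p = 0.0388). The call of TIPIN was lost without shIMPDH2 replicate 1 (0.0529), that of CLSPN without shIMPDH2 replicate 2 (0.0538), and that of TIMELESS without shControl replicate 2 (0.115), shIMPDH1 replicate 1 (0.0870), 2 (0.147) or 3 (0.0556) or shIMPDH2 replicate 1 (0.105) or 2 (0.0957).

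Of the genes that restore chromatin behind the fork, CHAF1A fell in shIMPDH1 and UHRF1 in both knockdowns. CHAF1A, the large subunit of chromatin assembly factor CAF-1, was at 92.3, 94.3 and 93.5 CPM in shControl, 85.3, 85.4 and 84.8 CPM in shIMPDH1 and 90.8, 90.99 and 94.5 CPM in shIMPDH2. The shIMPDH1 libraries lay below the other 6, and CHAF1A fell by 0.13 on the log2 scale (SE 0.028, adjusted p = 0.000362) there, against a log2 change of -0.02 (adjusted p = 0.616) in shIMPDH2. CHAF1B, its partner, had a log2 change of -0.12 (adjusted p = 0.0739) and of 0.03 (adjusted p = 0.731). UHRF1, which brings the maintenance methyltransferase DNMT1 to new DNA, was at 89.9, 87.9 and 85.5 CPM in shControl, 83.2, 80.5 and 77.9 CPM in shIMPDH1 and 75.8, 79.5 and 78.6 CPM in shIMPDH2. Both knockdowns lay below the control. UHRF1 fell by 0.13 on the log2 scale (SE 0.032, adjusted p = 0.00207) in shIMPDH1 and fell by 0.17 on the log2 scale (SE 0.032, adjusted p = 9.38e-05) in shIMPDH2. CHAF1A was higher in shIMPDH2 than in shIMPDH1 by 0.11 (adjusted p = 0.00187) and CHAF1B by 0.14 (adjusted p = 0.0281), the latter lost without shIMPDH1 replicate 1 (0.106) or 2 (0.132) or shIMPDH2 replicate 2 (0.0959) or 3 (0.109).

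Between the knockdowns the largest differences lay in RFC5, POLD1, POLD2 and GINS1, lower in shIMPDH2, and in CDC45, GINS2 and PCNA, higher in shIMPDH2. This contrast does not use the control libraries as an arm. Of the 26 members it called, 15 kept the call under all 17 alternatives, 8 of them higher and 7 lower in shIMPDH2. Against the control, 18 of 24 calls in shIMPDH1 and 17 of 22 in shIMPDH2 were kept under all 17.

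**Figure D3:**
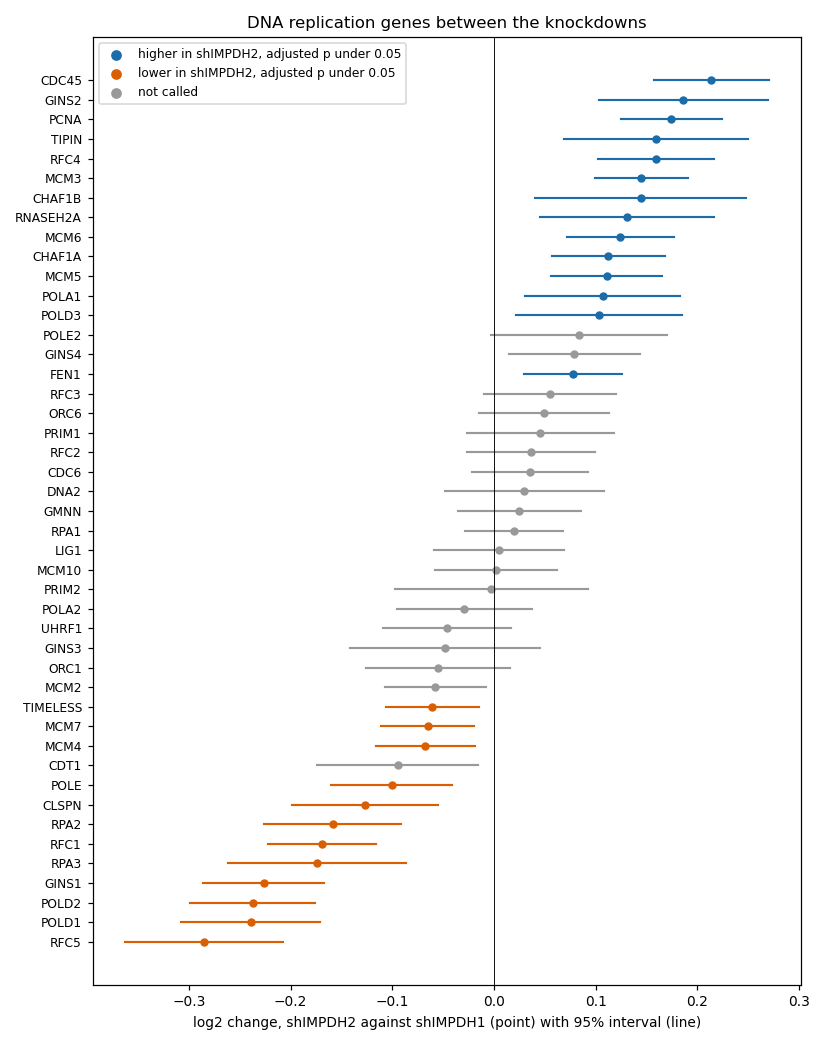
Log2 change of each member in shIMPDH2 against shIMPDH1 (x axis, point) with its 95% interval (line), members in order of the change (y axis) and coloured by call. CDC45 is at the top, 0.21, and RFC5 at the bottom, -0.29.

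Levels were set side by side between genes as CPM per kilobase, with the merged exons of each gene in GENCODE 29 as its length, so a gene with long exons of rare transcripts is understated. In shControl PCNA was highest at 198 CPM per kilobase, followed by MCM7 at 163, MCM3 at 117, FEN1 at 80.2 and MCM2 at 68.9. The lowest were GINS3 at 3.09, CHAF1B at 3.84, PRIM2 at 6.13 and POLD3 at 6.41. Subunits of 1 complex did not have equal values on this scale, which depends on the exon length used. In the MCM ring the range was from 15.98 for MCM5 to 163 for MCM7, and in GINS from 3.09 for GINS3 to 28.3 for GINS1. For primase, PRIM1 was at 12.1 and PRIM2 at 6.13, but before division by length their mean shControl CPM was 29.6 and 28.6. Their merged exons hold 2437 and 4667 bases, so that gap came largely from the lengths used. The gene that rose most, GINS3, was the lowest of all 45 in shControl and reached 4.12 in shIMPDH1 and 3.99 in shIMPDH2 on the same scale, beside 3.54 and 3.92 for CHAF1B. RFC5 was at 15.4 in shControl and 11.8 in shIMPDH2, while RFC4 went from 23.6 to 28.6.

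**Figure D4:**
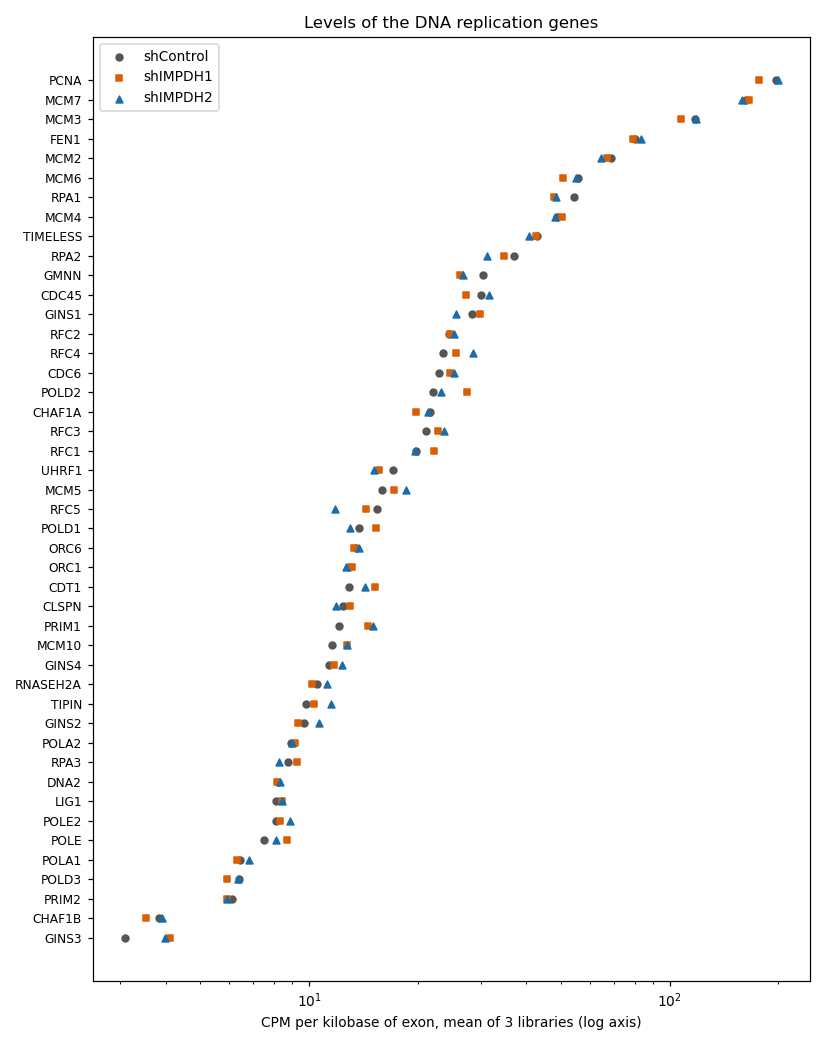
Mean level of each member per kilobase of merged exon (x axis, log scale) in the 3 groups, members in the order of the shControl level (y axis). The groups lie close together beside the spread over genes, which runs from 3.09 for GINS3 to 198 for PCNA in shControl.

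Promoter windows were read for 38 of the 45 members from RefSeq sequences on GRCh38.p14, each with 250 bases before and 50 after the gene's start in RefSeq. That start can differ from the first base of the GENCODE 29 gene given above, which takes in all transcripts of the gene, and for CDC6, CDT1, GINS3, RFC3 and PCNA it lies inside the GENCODE gene. MCM4, MCM5, GINS4, DNA2, POLD3, RPA2 and RPA3 were not among them. The E2F motif was searched as TTTCCCGC, TTTCGCGC, TTTGCCGC or TTTGGCGC on both strands, where a match on 1 strand can overlap a match on the other. It was present in 18 of 38 member windows, 47.4%, and in 908 of 27305 windows of the whole table, 3.33%. The CCAAT box, CCAAT, was present in 24 of 38 and in 35.7% of all windows. The cell cycle homology region, searched as TTTGAA or TTTAAA, was in 0 of 38 and in 24.3% of all windows.

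Windows of 6 members are shown because each holds an E2F motif although the genes moved in different directions. CDC6, CDT1, GINS3 and RFC3 rose in both knockdowns, while PCNA and MCM6 fell in shIMPDH1 and were not called in shIMPDH2. Each runs from 170 bases before to 30 after the RefSeq start, 5′ to 3′ on the gene's strand, with the motif in capitals. The regions are chr17:40287709-40287908, plus strand for CDC6, chr16:88803619-88803818, plus strand for CDT1, chr16:58392301-58392500, plus strand for GINS3, chr13:33817979-33818178, plus strand for RFC3, chr20:5126593-5126792, minus strand for PCNA and chr2:135876414-135876613, minus strand for MCM6.
CDC6: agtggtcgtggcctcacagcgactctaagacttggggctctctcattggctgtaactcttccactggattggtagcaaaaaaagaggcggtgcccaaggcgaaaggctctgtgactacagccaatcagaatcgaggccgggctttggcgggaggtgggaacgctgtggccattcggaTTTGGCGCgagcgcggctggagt
CDT1: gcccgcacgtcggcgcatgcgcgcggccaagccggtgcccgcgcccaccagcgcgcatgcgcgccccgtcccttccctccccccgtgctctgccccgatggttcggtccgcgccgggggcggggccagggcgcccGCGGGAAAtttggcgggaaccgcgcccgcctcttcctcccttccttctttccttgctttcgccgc
GINS3: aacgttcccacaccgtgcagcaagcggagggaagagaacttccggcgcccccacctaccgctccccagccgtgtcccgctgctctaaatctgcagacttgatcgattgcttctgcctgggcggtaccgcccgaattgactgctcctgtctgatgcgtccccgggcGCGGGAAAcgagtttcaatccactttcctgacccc
RFC3: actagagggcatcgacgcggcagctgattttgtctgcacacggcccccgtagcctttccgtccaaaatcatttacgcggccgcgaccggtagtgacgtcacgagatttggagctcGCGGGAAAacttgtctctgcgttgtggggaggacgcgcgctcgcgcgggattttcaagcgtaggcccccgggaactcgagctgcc
PCNA: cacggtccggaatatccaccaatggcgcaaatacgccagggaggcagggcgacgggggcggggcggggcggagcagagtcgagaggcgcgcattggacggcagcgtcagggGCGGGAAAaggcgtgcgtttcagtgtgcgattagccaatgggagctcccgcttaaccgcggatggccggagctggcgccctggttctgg
MCM6: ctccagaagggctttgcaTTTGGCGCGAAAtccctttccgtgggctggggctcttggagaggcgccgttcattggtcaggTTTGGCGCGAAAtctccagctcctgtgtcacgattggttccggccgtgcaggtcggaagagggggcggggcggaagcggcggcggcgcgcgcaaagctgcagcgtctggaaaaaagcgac

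A capital run that reads GCGGGAAA is the motif TTTCCCGC on the other strand. In MCM6 each capital run holds a pair of overlapping matches, 1 on each strand, and the runs start 152 and 90 bases before the gene's start. In PCNA the motif starts 59 bases before it, in RFC3 55, in CDT1 35 and in GINS3 5, and in CDC6 it begins at base 8 after the start. Members with and without the motif were called in both directions, where without means without any of the spellings searched. Near spellings such as TTTGGCGG were not counted. That one stands in lower case in the windows of CDC6 and CDT1, and in that of MCM10, counted as without. In shIMPDH1, 6 of 18 rose and 4 fell among members with the motif, and 6 of 20 rose and 5 fell among those without. In shIMPDH2, 7 of 18 rose and 3 fell among members with the motif, and 5 of 20 rose and 4 fell among those without. Between the knockdowns, 5 of 18 were higher in shIMPDH2 and 4 lower with the motif, and 7 of 20 and 5 without it. A match describes letters and does not measure binding. RFC4 and RFC5, which moved in opposite directions, both had no match in their windows.

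Other genes of the pathway were taken from 5 lists, and all members of these lists were tested. For comparison, the median log2 change of all genes tested was 0.00 in shIMPDH1, 0.01 in shIMPDH2 and -0.01 between the knockdowns, and 43.4%, 38.4% and 44.0% of them were called. Of 26 further replication factors, 10 rose, 7 fell and 9 were not called in shIMPDH1 (median log2 change 0.01), and 8 rose, 1 fell and 17 were not called in shIMPDH2 (median 0.08). TOP2A, the topoisomerase that untangles finished strands, fell in both, by 0.28 (adjusted p = 2.14e-09) and 0.26 (adjusted p = 1.89e-08) on the log2 scale. TICRR, which helps load CDC45, rose by 0.24 (adjusted p = 5.26e-07) and 0.19 (adjusted p = 2.49e-05). RECQL4, a helicase of fork start, rose by 0.26 (adjusted p = 1.30e-06) and 0.23 (adjusted p = 8.87e-06). TOPBP1, a partner of TICRR and activator of ATR, fell by 0.20 (adjusted p = 3.84e-07) in shIMPDH1. DSCC1, of an alternative clamp loader, rose by 0.22 (adjusted p = 6.40e-05) in shIMPDH2. Between the knockdowns 8 of the 26 were higher in shIMPDH2 and 4 lower, with ORC4 higher by 0.30 (adjusted p = 7.52e-08), and DTL, a substrate receptor for CDT1 destruction, higher by 0.20 (adjusted p = 2.30e-05).

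Of 18 genes of the replication checkpoint and fork repair, 5 rose, 4 fell and 9 were not called in shIMPDH1 (median 0.07), and 6 rose, 1 fell and 11 were not called in shIMPDH2 (median 0.04). ATRIP, the partner of the kinase ATR, rose by 0.42 (adjusted p = 4.89e-07) in shIMPDH1 and 0.22 (adjusted p = 0.00229) in shIMPDH2. In shIMPDH1 the helicase gene MCM8 fell by 0.28 (adjusted p = 1.92e-09) and the kinase gene WEE1 by 0.23 (adjusted p = 3.57e-07), while the phosphatase gene CDC25A rose by 0.20 (adjusted p = 1.62e-06). In shIMPDH2 the kinase gene CHEK1 rose by 0.20 (adjusted p = 4.62e-05) and RAD1, of the checkpoint clamp, by 0.20 (adjusted p = 1.13e-05). Between the knockdowns 6 were higher in shIMPDH2 and 4 lower, with RAD1 at 0.39 (adjusted p = 6.11e-11) and MCM8 at 0.31 (adjusted p = 2.28e-10).

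Of 10 genes of deoxynucleotide supply, 1 rose, 5 fell and 4 were not called in shIMPDH1 (median -0.10), and 2 rose, 2 fell and 6 were not called in shIMPDH2 (median -0.01). Thymidine kinase, TK1, fell by 0.24 (adjusted p = 2.06e-07) in shIMPDH1, DUT, which removes dUTP, by 0.24 (adjusted p = 1.96e-05), and thymidylate synthase, TYMS, by 0.17 (adjusted p = 4.19e-06). SAMHD1, which degrades dNTPs, rose by 0.15 (adjusted p = 0.000541). In shIMPDH2 TYMS fell by 0.15 (adjusted p = 3.91e-05) and RRM2, the regulated subunit of ribonucleotide reductase, by 0.14 (adjusted p = 4.10e-05). Between the knockdowns 5 were higher in shIMPDH2 and 1 lower, with TK1 at 0.29 (adjusted p = 5.70e-09) and DUT at 0.30 (adjusted p = 5.28e-07).

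Among 26 regulators of G1 and S phase, CDKN1A, CCND1, CCNA2, E2F2 and MYC changed more than any of the 45 replication genes in shIMPDH1. The median size of the regulators' log2 change, without its sign, was 0.17 in shIMPDH1, 0.09 in shIMPDH2 and 0.24 between the knockdowns. For the 45 members it was 0.10, 0.08 and 0.09, and for all genes tested 0.16, 0.14 and 0.17. These differences were not tested. Of these regulators, 5 rose, 12 fell and 9 were not called in shIMPDH1, and 6 rose, 8 fell and 12 were not called in shIMPDH2. CDKN1A, the p21 inhibitor of CDK2, was at 16.9, 17.6 and 16.01 CPM in shControl, 10.001, 9.99 and 10.2 CPM in shIMPDH1 and 7.502, 8.13 and 8.45 CPM in shIMPDH2. It fell in both knockdowns, by 0.74 and 1.07 on the log2 scale (adjusted p = 5.73e-11 and 7.15e-14). Cyclin D1, CCND1, fell by 0.67 (adjusted p = 1.18e-17) and 0.33 (adjusted p = 2.72e-11). MYC rose by 0.81 (adjusted p = 1.25e-16) in shIMPDH1, and cyclin A, CCNA2, fell by 0.44 (adjusted p = 1.22e-12) there. In shIMPDH2 the repressor E2F5 fell by 0.68 (adjusted p = 2.08e-09) and cyclin E2, CCNE2, rose by 0.43 (adjusted p = 6.00e-08). Between the knockdowns 11 regulators were higher in shIMPDH2 and 8 lower. CCNA2 was higher by 0.50 (adjusted p = 8.31e-14) and E2F2, an activator, by 0.93 (adjusted p = 1.51e-12). E2F2 was at 17.9, 16.5 and 17.5 CPM in shControl, 10.2, 10.2 and 9.65 CPM in shIMPDH1 and 17.7, 18.7 and 20.9 CPM in shIMPDH2. Its shIMPDH1 libraries lay below all others, and the other groups overlapped. E2F5 and MYC were lower in shIMPDH2 than in shIMPDH1, with log2 changes of -0.97 (adjusted p = 8.04e-13) and -0.55 (adjusted p = 1.70e-13).

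Genes of chromatin assembly and maintenance that were called against the control all fell, 4 of 10 in shIMPDH1 and 6 of 10 in shIMPDH2 (medians -0.06 and -0.10). ASF1B, a histone chaperone, fell by 0.30 (adjusted p = 2.85e-08) and 0.18 (adjusted p = 9.43e-05). In shIMPDH1 the acetyltransferase gene HAT1 fell by 0.31 (adjusted p = 8.76e-09). PCLAF, a PCNA-binding factor listed in the table as KIAA0101, was at 10.5, 11.9 and 10.7 CPM in shControl, 7.93, 8.32 and 7.89 CPM in shIMPDH1 and 10.1, 10.8 and 10.7 CPM in shIMPDH2. It fell by 0.46 on the log2 scale (SE 0.066, adjusted p = 2.48e-06) in shIMPDH1, as PCNA did, and had a log2 change of -0.07 (adjusted p = 0.419) in shIMPDH2. DNMT1, the partner of UHRF1, fell by 0.16 (adjusted p = 5.63e-06) in shIMPDH2. RBBP4, a subunit that CAF-1 shares, fell by 0.13 (adjusted p = 0.000216) there.

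The 6 fibroblast markers summed to 31.3 to 33.1 CPM in shControl, 25.001 to 25.6 in shIMPDH1 and 26.5 to 26.8 in shIMPDH2. Of the 5 that were tested, 2 fell and 3 were not called in shIMPDH1. In shIMPDH2, 1 rose, 2 fell and 2 were not called. The 6 leukocyte markers summed to 889.8 to 939 CPM in shControl, 1312 to 1349 in shIMPDH1 and 865 to 903 in shIMPDH2, nearly all of it LYZ. The 5 endothelial markers summed to 12.3 to 13.5 CPM in shControl, 5.29 to 6.69 in shIMPDH1 and 6.82 to 8.03 in shIMPDH2, nearly all of it PECAM1, with KDR at 0 in each library. The 10 hepatocyte and hepatoma markers summed to 36029 to 38246 CPM in shControl, 41318 to 42639 in shIMPDH1 and 43105 to 44209 in shIMPDH2. They did not all move together, with 6 called higher and 1 lower in shIMPDH1, and 6 higher and 4 lower in shIMPDH2. The sums of these marker lists moved with the groups, and their part in the changes of the replication genes was not tested.

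**Figure D5:**
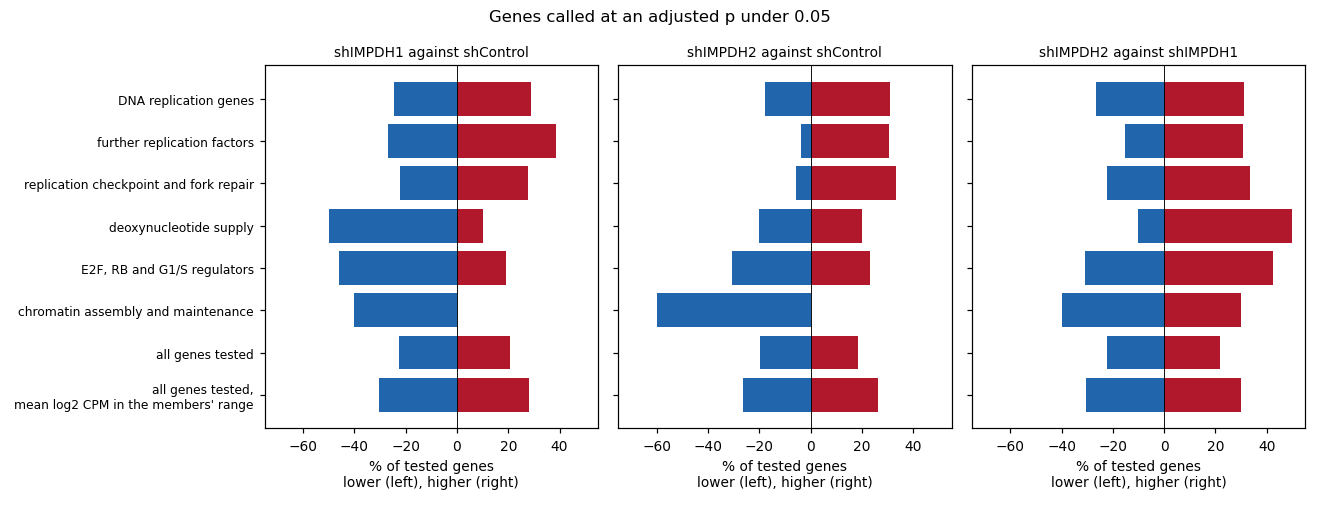
Share of tested genes called higher (right, red) or lower (left, blue) at an adjusted p under 0.05 (x axis, percent) for the 45 DNA replication genes, the 5 further lists of the pathway and all genes tested (y axis), in the 3 comparisons. The replication genes were called on both sides, 53.3%, 48.9% and 57.8% in all, beside 58.5%, 52.5% and 60.6% of genes in the members' range of expression (lowest bars).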

How the data were processed

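Stranded libraries from messenger RNA were sequenced for 9 samples in 3 groups of 3, per the labels' protocols. Per the submitters' processing notes, the tools were Trim Galore, cutadapt, STAR and featureCounts, with build hg38. Tool versions, annotation release, strand setting and the handling of multi-mapping reads: not given in the sources used here. In the deposited table the authors gave raw counts per gene, not normalised, 1 column per library. Low counts were filtered by group in edgeR 4.0.16 (R 4.3.3), which left 17396 genes, and TMM factors were applied. A quasi-likelihood fit with a coefficient per group covered the 9 libraries, and each comparison was a contrast. The SE is the size of the log2 change over the root of F, and 95% intervals span 1.96 SE on each side. The common biological coefficient of variation was 0.0268. Alternatives were DESeq2 1.42.0, other scalings and filters, fits of fewer samples, a replicate block and each library left out. The members and lists were chosen with earlier results of these data known. Any member may be named. Up to 6 higher and 6 lower members per comparison, of largest change, called and without overlap of the groups, are given with every library's value, and up to 4 genes of smallest p are named per further list. Genes that overlap a member, and the genes of like expression, were chosen after values were seen. Positions are 1-based on GRCh38 from GENCODE 29. PCLAF was matched through 1 RefSeq synonym. Some genes of these lists are not reported here by name.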

Additional observations from a re-analysis of the deposited data

Results flagged for a closer look

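CDC45 and GINS1, which encode parts of the same helicase complex, were singled out because each was called in opposite directions in the knockdowns and the direct test between the knockdowns called the difference. CDC45 differed by a log2 change of 0.21 (SE 0.029, edgeR adjusted p = 6.88e-07) in shIMPDH2 against shIMPDH1, with all 3 shIMPDH2 libraries above all 3 shIMPDH1 libraries. GINS1 differed by -0.23 (SE 0.030, edgeR adjusted p = 5.59e-07), with all 3 shIMPDH2 libraries below. Both arms share the shControl libraries, and the arm of smaller change, CDC45 in shIMPDH2 and GINS1 in shIMPDH1, lost its call without some single libraries.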

How the results depend on the processing

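None of the 72 called changes of a member reversed under any of the 17 alternatives for scaling, filter, tool, samples, replicate block and left-out library. A call that also asks for a fold of at least 1.2 left 3 members higher and 0 lower in shIMPDH1 than in shControl, 3 and 1 in shIMPDH2 than in shControl, and 0 and 1 in shIMPDH2 than in shIMPDH1. All other alternatives kept these counts within 1.5 times. Leaving out 1 library gave 10 to 13 higher and 8 to 11 lower in shIMPDH1, 12 to 15 and 7 to 9 in shIMPDH2, and 10 to 15 and 9 to 14 between the knockdowns. Replicate numbers are shared by the groups, and the labels do not say that they pair cultures. The deviations of same-numbered libraries correlated between -0.086 and 0.089, and those of differently numbered libraries reached 0.107. Values this weak cannot decide whether same-numbered libraries were handled together. With the replicate number as a block the counts were 13 higher and 11 lower, 14 and 8, and 13 and 14. Library totals without factors raised the median member change between the knockdowns from 0.0249 to 0.0535, and with it that of all genes tested from -0.0112 to 0.0174. Leaving out 1 library gave medians of 0.0144 to 0.0315 in shIMPDH1, 0.0046 to 0.0348 in shIMPDH2 (lowest without shIMPDH2 replicate 3 and shControl replicate 1, highest without shControl replicate 2) and 0.0141 to 0.0356 between the knockdowns. Changes of a few percent pass the test at this depth, and which of them would hold in separate infections was not tested.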
